A study of Mus musculus with 4 samples.

Results

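The integrated stress response genes described here are 10 genes set by name: Atf4, Atf5, Ddit3, Trib3, Asns, Chac1, Psat1, Phgdh, Slc7a11 and Gdf15. They were chosen with earlier results of these data known. Each of the 10 had a single row among the 22632 genes of the deposited expression table, and none was listed at 0 in any library. The table comes from RNA-seq of mouse small intestinal organoids, epithelial cultures grown from crypts in Matrigel with Egf, Noggin and R-spondin 1, harvested 24 hours after whole crypts were seeded. There were 4 groups of 1 library each. Yap-/- organoids came from Yapfl/fl;VillinCre mice, in which Cre driven in the intestinal epithelium removes both copies of Yap1, and they were set against Yap+/- organoids from Yap+/fl;VillinCre mice, which carry the same Cre and keep 1 working copy. YapTg organoids hold a wild-type Yap transgene that doxycycline switches on through a reverse tetracycline transactivator made after Cre recombination. They were grown with doxycycline from seeding, and were set against YapTg organoids without doxycycline. The labels used here do not give the Cre of the YapTg line or the number of mice behind a culture. With doxycycline, the drug and the transgene came together, so their effects cannot be told apart. Since each group is a single library, the differences have no replicate check and no p-value is given; intervals cover counting error alone. In bulk libraries, fewer cells of a type and less RNA per cell cannot be told apart.

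The integrated stress response slows general protein synthesis when kinases that sense amino acid shortage, unfolded protein in the endoplasmic reticulum, double-stranded RNA or haem shortage phosphorylate the translation factor eIF2. Translation of Atf4 mRNA rises under the same condition, through short reading frames upstream of its coding sequence, and the ATF4 protein then switches on genes for amino acid synthesis, amino acid import, tRNA charging and, when stress lasts, cell death. ATF4 is thus set to a large part at translation, which mRNA levels do not show. YAP is a transcriptional co-activator restrained by the Hippo pathway, and it is known in the intestine for its part in regeneration after damage.

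The library totals behind the values were 67716822 reads for Yap-/-, 56926423 for Yap+/-, 75269003 for YapTg with doxycycline and 44934170 for YapTg without doxycycline. Yap1 was at 3.35 RPKM (reads divided by the length of the gene and the total of the library) in Yap-/- against 16.7 RPKM in Yap+/- organoids, and at 1039 RPKM with against 25.1 RPKM without doxycycline, as the labels say. All 9 epithelial markers, among them Epcam and Vil1, were above 1 RPKM in each library. Of 10 stromal markers, Vim alone reached 1 RPKM in any library, and Col3a1, Dcn, Lum and Des were listed at 0 in all 4. The summed stromal level was 3.61 RPKM in Yap-/- against 3.57 RPKM in Yap+/- organoids, and 0.489 RPKM with against 2.50 RPKM without doxycycline. The endothelial and red blood cell lists had no member at 1 RPKM. The summed level of 7 immune markers was 5.36 RPKM in Yap-/- against 4.42 RPKM in Yap+/- organoids, and 8.93 RPKM with against 6.39 RPKM without doxycycline, and the part of these markers in the results below was not tested.

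All 10 stress response genes were lower in Yap-/- than in Yap+/- organoids, and all 10 were higher with than without doxycycline. In the Yap-/- comparison the differences were small. The median log2 ratio of RPKM plus 1 over the 10 genes was -0.49, against 0.05 over the 10710 genes that reached 1 RPKM in either library. No member was 2-fold lower on that scale, as were 0.57% of all genes, and none was 2-fold higher, as were 0.336%. All 10 members passed the floor of 1 RPKM, Slc7a11 through the Yap+/- library alone. Counted from the lowest ratio, they stood between place 125 (Chac1) and place 1124 (Atf4) of the 10710. A lower value of any size was found for 34.5% of all genes in that pair. With doxycycline the median log2 ratio of the 10 genes was 1.00, against -0.04 over 11108 genes. In that comparison 5 members were at least 2-fold higher, namely Chac1, Trib3, Slc7a11, Psat1 and Ddit3, where 5.85% of all genes were, and none was 2-fold lower, where 5.8% were. A higher value of any size was found for 45.5% of all genes. Counted from the highest ratio, the members stood between place 320 (Chac1) and place 1478 (Atf4) of the 11108.

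**Figure D1:**
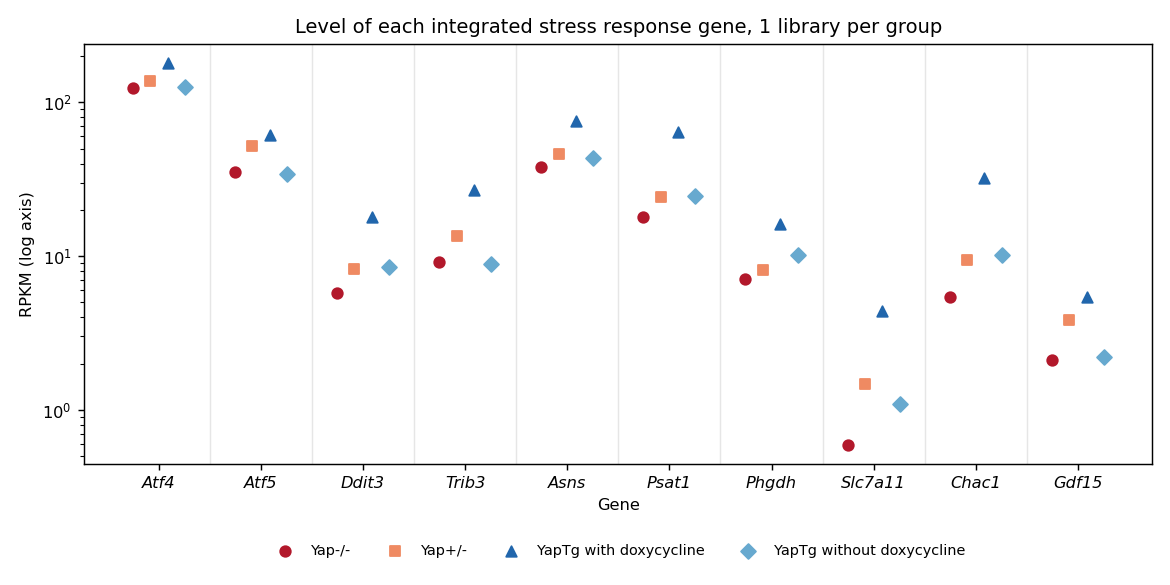
RPKM of each of the 10 genes (log axis) in the 4 libraries, 1 point per library. The library with doxycycline (triangles) is the highest for every gene, and the Yap-/- library (circles) is the lowest for 8 of 10, the exceptions being Atf5 and Trib3.

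Levels spanned a wide range, and RPKM, being per length, lets genes be set side by side. Atf4 was the most abundant member in every library and Slc7a11 the least. The gap between these genes was 209-fold in Yap-/- and 92.8-fold in Yap+/- organoids, and 40.9-fold with and 115-fold without doxycycline. Atf4 alone held 50.6% of the summed RPKM of the 10 genes in Yap-/- against 45.1% in Yap+/- organoids, and 37.2% with against 46.9% without doxycycline.

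Among the transcription factors, Atf4 (ENSMUSG00000042406), the central activator of the response, differed least. It was at 124 RPKM in Yap-/- against 137 RPKM in Yap+/- organoids, 1.10-fold lower (95% counting interval 1.07 to 1.14). With doxycycline it was at 180 RPKM, against 126 RPKM without, 1.43-fold higher (1.38 to 1.47). The 3 libraries other than that with doxycycline therefore lay close together for Atf4, while most of its target genes spread further. Atf5 (ENSMUSG00000038539), a relative of ATF4 that is also controlled at translation, was at 35.4 RPKM in Yap-/- against 51.8 RPKM in Yap+/- organoids, 1.46-fold lower (1.38 to 1.54). It was at 61.0 RPKM with against 34.3 RPKM without doxycycline, 1.78-fold higher (1.68 to 1.89). Here the Yap-/- library and the library without doxycycline were at much the same level, and Yap+/- stood nearer to the induced library. Ddit3 (ENSMUSG00000025408), which encodes CHOP, a factor that promotes death of stressed cells, was at 5.77 RPKM in Yap-/- against 8.25 RPKM in Yap+/- organoids, 1.43-fold lower (1.24 to 1.66). With doxycycline it was at 18.0 RPKM, against 8.48 RPKM without, 2.13-fold higher (1.88 to 2.41). The Yap+/- library and the library without doxycycline nearly coincided for Ddit3, with Yap-/- below and the induced library above them.

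Trib3 (ENSMUSG00000032715) encodes a pseudokinase that ATF4 and CHOP switch on and that feeds back on them. It was at 9.11 RPKM in Yap-/- against 13.6 RPKM in Yap+/- organoids, 1.49-fold lower (1.34 to 1.65), and at 26.8 RPKM with against 8.85 RPKM without doxycycline, 3.03-fold higher (2.73 to 3.37). Like Atf5, it was at nearly the same level in Yap-/- organoids and in YapTg organoids without doxycycline.

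The genes of amino acid synthesis differed by unequal amounts. Asns (ENSMUSG00000029752), asparagine synthetase, was at 37.7 RPKM in Yap-/- against 46.3 RPKM in Yap+/- organoids, 1.23-fold lower (1.17 to 1.29). With doxycycline Asns was at 75.4 RPKM, against 43.3 RPKM without, 1.74-fold higher (1.66 to 1.82). Serine synthesis from glycolytic intermediates begins with Phgdh and goes on with Psat1. Phgdh (ENSMUSG00000053398) was at 7.07 RPKM in Yap-/- against 8.15 RPKM in Yap+/- organoids, 1.15-fold lower (1.03 to 1.30), and at 16.1 RPKM with against 10.1 RPKM without doxycycline, 1.59-fold higher (1.45 to 1.76). Psat1 (ENSMUSG00000024640) was at 17.8 RPKM in Yap-/- against 24.4 RPKM in Yap+/- organoids, 1.37-fold lower (1.30 to 1.44). It was at 64.4 RPKM with against 24.6 RPKM without doxycycline, 2.62-fold higher (2.50 to 2.74). Of these consecutive enzymes, the second thus showed the larger fold in both comparisons. Their counting intervals lay well apart with doxycycline and met at 1.30 in Yap-/- organoids.

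With doxycycline the widest folds were at the genes of cystine and glutathione handling. Slc7a11 (ENSMUSG00000027737), the cystine importer that feeds glutathione synthesis, was at 0.595 RPKM in Yap-/- against 1.48 RPKM in Yap+/- organoids, 2.48-fold lower (2.12 to 2.93), from 453 and 946 reads. On the scale of RPKM plus 1 its log2 ratio was only -0.64, since its level is near the pseudocount. With doxycycline Slc7a11 was at 4.40 RPKM, against 1.10 RPKM without, 4.01-fold higher (3.54 to 4.57). Chac1 (ENSMUSG00000027313), an enzyme that breaks down glutathione, was at 5.45 RPKM in Yap-/- against 9.42 RPKM in Yap+/- organoids, 1.73-fold lower (1.49 to 2.01). It was at 32.3 RPKM with against 10.2 RPKM without doxycycline, 3.16-fold higher (2.83 to 3.54). A transporter that supplies glutathione synthesis and an enzyme that degrades glutathione were thus both lower in Yap-/- organoids and both higher with doxycycline.

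Gdf15 (ENSMUSG00000038508) encodes a secreted stress cytokine that acts on a receptor of the hindbrain, and p53 is also known to switch it on. It was at 2.10 RPKM in Yap-/- against 3.81 RPKM in Yap+/- organoids, 1.82-fold lower (1.46 to 2.29), from 263 and 402 reads. With doxycycline it was at 5.44 RPKM, against 2.22 RPKM without, 2.45-fold higher (1.95 to 3.12), from 758 and 185 reads. Its log2 ratio of RPKM plus 1 was 0.998, just short of the 2-fold line, while that of Ddit3 was 1.01, just past it. Counting error was widest at Gdf15, the member with the fewest reads in each library.

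**Figure D2:**
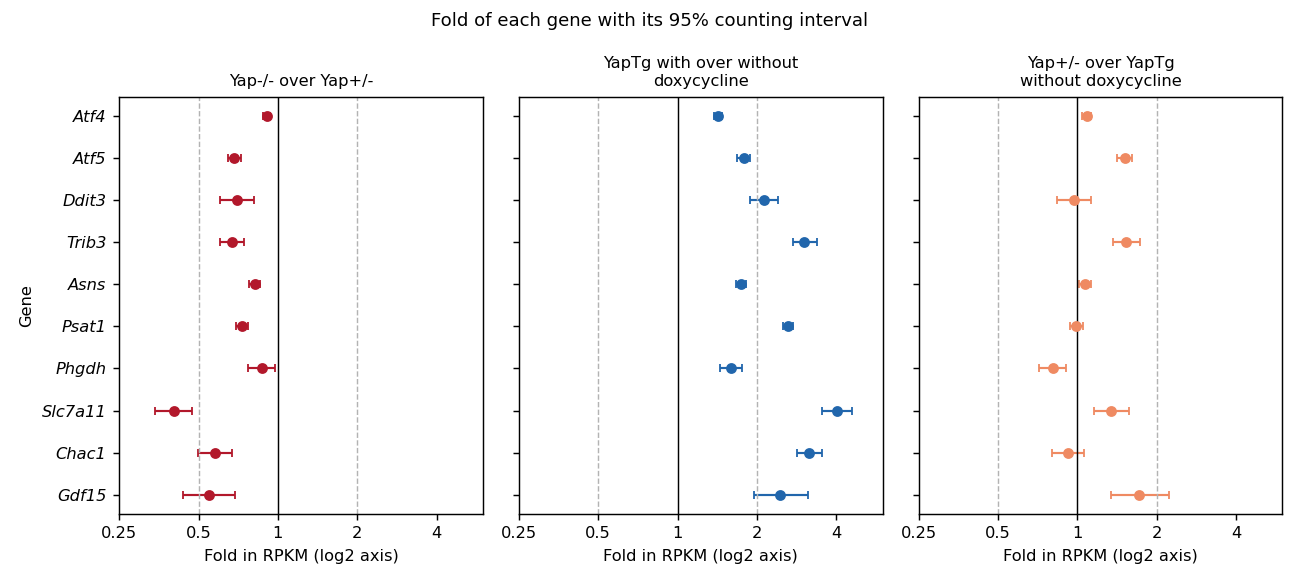
Fold in RPKM of each gene (log2 axis) with its 95% counting interval, in 3 panels: Yap-/- over Yap+/- (left), doxycycline over none in YapTg (middle), and Yap+/- over uninduced YapTg (right); dashed lines mark 2-fold. All 10 intervals lie below 1 on the left and all 10 above 1 in the middle, while on the right 3 of 10 hold 1. Intervals were computed for listed genes only, so no share over all genes can be set beside these counts.

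The Yap+/- library and the YapTg library without doxycycline, which had neither full loss nor induction, show how far the genes differ between 2 reference cultures of different lines. Of the 10 genes, 6 were higher and 4 lower in Yap+/- organoids, where 3746 of all 10883 genes were higher and 7137 lower. The median log2 ratio was 0.10 for the 10 genes and -0.11 over all genes. No member was 2-fold apart, where 1.11% of all genes were higher and 0.726% lower (121 and 79 genes; 173 and 60 after median-ratio scaling, 159 and 63 after upper-quartile scaling). Median-ratio scaling moved the median of all genes in this pair by 0.13 on the log2 scale, to 0.02. It left 9 members higher and 1 lower, so the direction of the small differences here depends on the scaling. For Ddit3, Chac1 and Psat1 the interval of the fold held 1, although that of Psat1 lay above 1 after either scaling. Gdf15, Trib3 and Atf5 differed most, 1.72-fold (1.34 to 2.23), 1.53-fold (1.36 to 1.73) and 1.51-fold (1.42 to 1.61) higher in Yap+/- organoids. For these 3 genes that gap was of about the size of the gap between Yap-/- and Yap+/- organoids. The same held for Atf4, at smaller folds. It was 1.09-fold (1.05 to 1.13) higher in Yap+/- organoids here, against 1.10-fold over Yap-/- organoids. Phgdh went the other way, 1.24-fold (1.10 to 1.39) lower in Yap+/- organoids than in YapTg organoids without doxycycline. That gap was wider than its 1.15-fold between Yap-/- and Yap+/- organoids. After median-ratio scaling the Phgdh fold of Yap+/- over YapTg without doxycycline was 0.898, and its interval held 1 (0.799 to 1.01).

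The Yap-/- library was therefore also set beside the YapTg library without doxycycline, a comparison of different lines that was added after the values were seen. The Yap-/- level was lower for Chac1 (1.88-fold, 1.61 to 2.19), Slc7a11 (1.85-fold, 1.54 to 2.21), Ddit3 (1.47-fold, 1.26 to 1.72), Phgdh (1.43-fold, 1.27 to 1.61), Psat1 (1.38-fold, 1.30 to 1.46) and Asns (1.15-fold, 1.09 to 1.21). The fold of Phgdh was slightly larger than that of Psat1 here, with overlapping intervals, the reverse of their order against Yap+/- organoids. For the other 4, Atf4, Atf5, Trib3 and Gdf15, the interval of the fold held 1. After median-ratio scaling the same 6 intervals lay below 1, but those of Atf4 (1.06-fold, 1.02 to 1.10) and Atf5 (1.12-fold, 1.05 to 1.19) lay above it. For Atf4, Atf5, Trib3 and Gdf15, a low level in Yap-/- and a high level in the Yap+/- library cannot be told apart with these libraries.

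The Yap-/- comparison and the doxycycline comparison share no library. All 10 genes were lower in the first and higher in the second, a combination found for 21.5% of the 10533 genes at 1 RPKM in both comparisons. For 8 of 10 the doxycycline library was the highest of the 4 and the Yap-/- library the lowest, an order found for 16.5% of those genes. Since the 10 genes were chosen with earlier results of these data known, these shares and the correlation below are no independent check. Members further down in Yap-/- organoids tended to be further up with doxycycline. Across the 10 genes Pearson's r between the log2 ratios was -0.78, and across the 10533 genes it was -0.47; genes share the same 4 libraries and are not independent replicates, and low genes are drawn towards 0 by the pseudocount in both ratios. Atf4, Phgdh and Asns were nearest to 0 in both comparisons, and Chac1 was furthest from 0 in both.

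**Figure D3:**
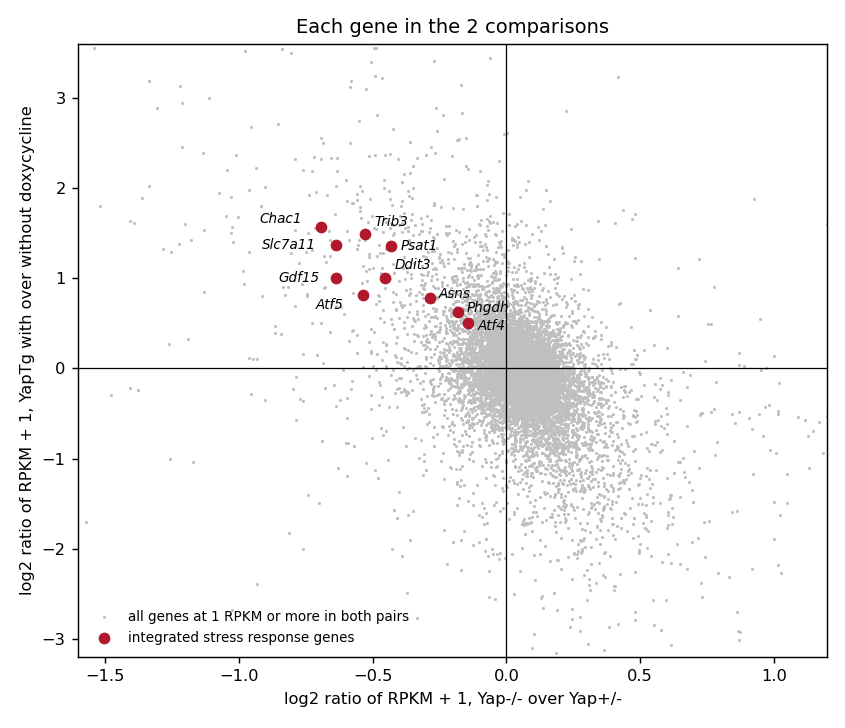
Log2 ratio of RPKM plus 1 for Yap-/- over Yap+/- (x axis) against YapTg with over without doxycycline (y axis), for 10533 genes (grey) and the 10 stress response genes (red); 55 genes lie outside the axes. All 10 red points are at the upper left, where 21.5% of genes lie.

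Promoter sequences were examined because ATF4 is known to bind, with C/EBP-family partners, a composite element in many of its target genes. RefSeq windows on GRCm38.p6, from 250 bases before to 50 bases after the start of transcription, were matched by symbol for 10 of 10 genes (13 windows). They were searched for the core TGATGNAA, which reads TTNCATCA on the other strand. The core was found in 4 of 10 genes, against 4.51% of all 27025 genes with a window. Some of these genes are known as ATF4 targets because of such elements, so the count is not independent of their choice. The genes were Slc7a11, Chac1, Asns and Trib3. Slc7a11, with the largest folds in both comparisons, held 2 cores facing opposite ways, the first on the strand of the gene. In Asns the core lay on the strand of the gene, and in Chac1 on the other. In Trib3 it lay after the start, at bases 15 to 22, again on the other strand. The stretches around the upstream cores follow, 5′ to 3′ on the strand of the gene, with the cores in capitals. They cover chr3:50443614-50443719 (minus strand) for Slc7a11, chr2:119351009-119351096 (plus strand) for Chac1 and chr6:7693210-7693272 (minus strand) for Asns, all of build GRCm38.p6.
Slc7a11: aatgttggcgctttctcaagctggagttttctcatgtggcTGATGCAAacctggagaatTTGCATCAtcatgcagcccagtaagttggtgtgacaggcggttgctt
Chac1: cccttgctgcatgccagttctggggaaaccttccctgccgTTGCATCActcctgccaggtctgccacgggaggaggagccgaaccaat
Asns: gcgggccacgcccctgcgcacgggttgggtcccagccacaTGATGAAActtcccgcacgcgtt

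In the windows of Atf4, Atf5, Ddit3, Psat1, Phgdh and Gdf15 these letters were not found, which says nothing about elements elsewhere in those genes. The members with a core did not all have large folds. With doxycycline Slc7a11, Chac1 and Trib3 were 4.01-fold, 3.16-fold and 3.03-fold higher, the largest of the 10, but Asns was 1.74-fold higher, below Psat1 at 2.62-fold, in whose windows the core was not found. Outside the 10 genes, a core was in the windows of 205 genes at 1 RPKM in the doxycycline pair. Of these, 6.34% were at least 2-fold higher, against 5.47% of 7623 genes whose windows did not hold it, and the median log2 ratios were 0.00 and -0.05. In the Yap-/- pair the medians were 0.04 for 193 genes with a core and 0.05 for 7376 without.

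Other genes of the pathway were followed in lists drawn up from textbook knowledge, with earlier results of these data known. Their counts stand beside these shares of all genes. With doxycycline 45.5% were higher, 5.85% were 2-fold higher and 5.8% 2-fold lower, and 6055 of 11108 were lower at all. In Yap-/- organoids 34.5% were lower. Among the upstream genes, the 4 eIF2 kinases, described here as the sensors although outside the rule for named genes, were less than 2-fold apart in each comparison. Eif2ak3 (PERK, the sensor of the endoplasmic reticulum) was 1.31-fold, Eif2ak2 (PKR) 1.30-fold and Eif2ak4 (GCN2, the sensor of uncharged tRNA) 1.22-fold higher with doxycycline, and Eif2ak1 1.02-fold lower. In Yap-/- organoids Eif2ak1 was 1.10-fold, Eif2ak4 1.09-fold and Eif2ak2 1.06-fold higher, and Eif2ak3 1.04-fold lower. Between the reference cultures, Eif2ak4 was 1.47-fold, Eif2ak2 1.42-fold and Eif2ak3 1.07-fold lower in Yap+/- organoids, and Eif2ak1 1.04-fold higher. Of 16 genes of eIF2 and its control, 2 were at least 2-fold higher with doxycycline. Ppp1r15a encodes GADD34, the stress-induced phosphatase subunit that removes the phosphate from eIF2, and itself a target of ATF4. It was at 2.84 RPKM in Yap-/- against 4.19 RPKM in Yap+/- organoids, and at 22.1 RPKM with against 3.46 RPKM without doxycycline, 6.40-fold higher (5.59 to 7.36). Eif2s2, the beta subunit of eIF2, was 2.28-fold higher with doxycycline. In Yap-/- organoids no gene of this list was 2-fold apart, and the list median was 0.02. Ppp1r15a was furthest from 0 there, 1.48-fold lower, followed by Eif2b4, a subunit of the exchange factor eIF2B, 1.17-fold higher.

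Further partners and targets of ATF4 gave a divided picture. With doxycycline 4 of 15 at the floor of 1 RPKM were at least 2-fold higher and none was 2-fold lower, with a list median log2 ratio of 0.08. Of these 15, Jdp2, Stc2 and Cbs reached the floor in a single library of the pair, Jdp2 and Stc2 through the library with doxycycline and Cbs through that without, and 3 of the other 12 were 2-fold higher. Atf3, a stress-induced factor of the same bZIP family, was at 3.19 RPKM in Yap-/- against 7.12 RPKM in Yap+/- organoids, and at 43.7 RPKM with against 5.98 RPKM without doxycycline, 7.31-fold higher (6.46 to 8.33). Jdp2, a bZIP repressor, was 11.8-fold higher with doxycycline (7.95 to 18.2), at 7.76 against 0.659 RPKM. Eif4ebp1 and Gpt2, named after their values were seen, were 2.29-fold and 2.84-fold higher. Against these, 5 of the 15 had a ratio below 0. In RPKM, Cbs was 2.72-fold lower (2.17 to 3.41), Ero1l 1.49-fold, Ddit4 1.38-fold and Vegfa 1.29-fold, and Nupr1 stood at 12.9 RPKM in both libraries; Vegfa apart, these were named after their values were seen. In Yap-/- organoids 9 of 14 were lower, with a median log2 ratio of -0.11, and none was 2-fold apart on the scale of RPKM plus 1, although Atf3 was 2.23-fold and Stc2 2.14-fold lower in RPKM. Stc2 and Vldlr reached the floor through Yap+/- alone, and these genes too were named after their values were seen, Atf3 apart. Vegfa was 1.56-fold lower there, so that it was lower in both comparisons. Ero1l and Ddit4, at 1.53-fold and 1.07-fold lower in Yap-/- organoids, were lower in both as well. Cbs and Nupr1 were 1.95-fold and 1.19-fold higher in Yap-/- organoids.

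**Figure D4:**
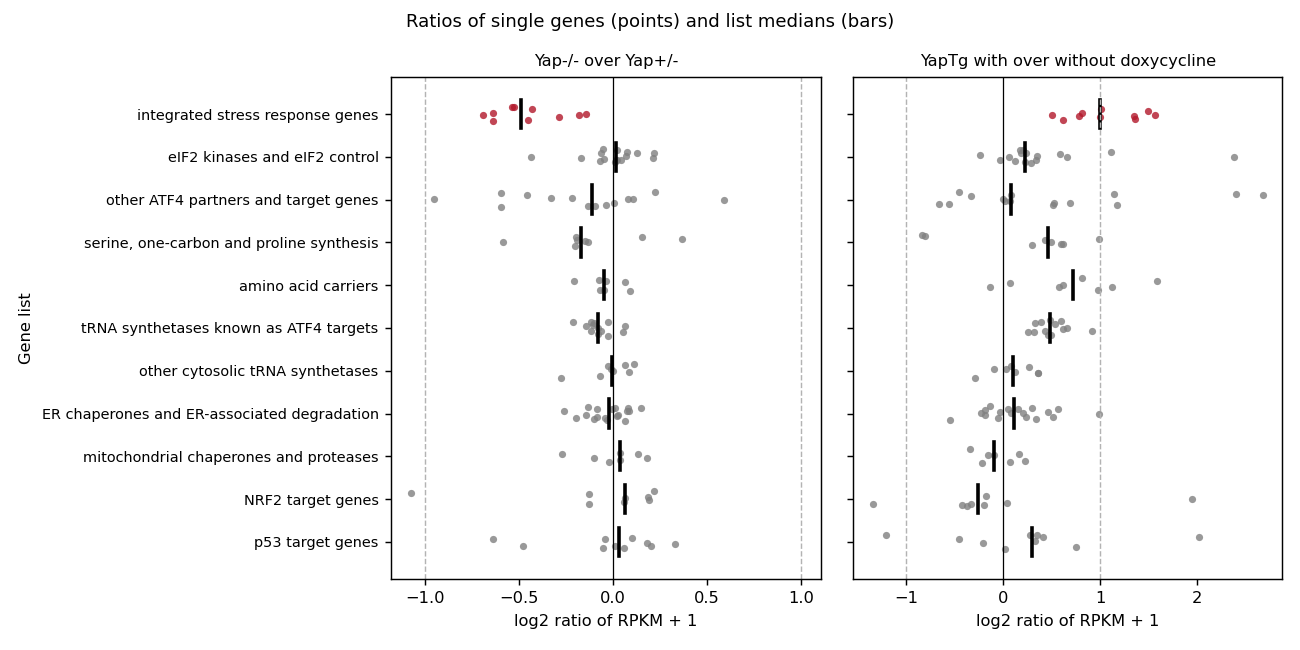
Log2 ratios of RPKM plus 1 for single genes (points, those at 1 RPKM or more in either library of the pair) in the stress response list (red) and 10 related lists (grey), with list medians as black bars; dashed lines mark 2-fold. The stress response list has the lowest median for Yap-/- over Yap+/- (-0.49) and the highest with over without doxycycline (1.00), with the amino acid carriers next (0.72). Without genes at the floor in 1 library of the pair only, the -0.49 becomes -0.45 and the 0.72 becomes 0.62. All lists were chosen with earlier results of these data known, so the ranking is a description.

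Amino acid supply genes were mostly higher with doxycycline. Of 8 amino acid carriers at the floor, 7 were higher, 2 of them at least 2-fold, with a list median of 0.72. Slc7a3 reached the floor through the library with doxycycline alone; among the other 7 carriers 6 were higher, 1 of them 2-fold, with a median of 0.62. Slc7a3, a carrier of cationic amino acids, was 12.2-fold higher (7.85 to 21.4) at 2.66 against 0.218 RPKM. Slc7a5, the carrier of large neutral amino acids, was 2.25-fold higher, and its partner chain Slc3a2, which also pairs with Slc7a11, was 2.00-fold higher. In Yap-/- organoids the carriers differed little, with a median of -0.05. Slc6a9, a glycine carrier, was 1.18-fold lower, and Slc3a2 was at 44.7 RPKM against 41.9 RPKM in Yap+/- organoids, although its partner Slc7a11 was 2.48-fold lower. In serine, one-carbon and proline synthesis, 6 of 8 genes were higher with doxycycline and none was 2-fold apart on the scale of RPKM plus 1, with a median of 0.46. Mthfd2, the mitochondrial folate enzyme, was at 44.5 RPKM with against 21.9 RPKM without doxycycline, 2.03-fold higher in RPKM, while Shmt1, the cytosolic serine hydroxymethyltransferase, was 1.83-fold lower and Aldh18a1, of proline synthesis, 1.76-fold lower. In Yap-/- organoids 6 of 8 were lower, with a median of -0.17. Aldh1l2, a mitochondrial folate enzyme that reached the floor through Yap+/- alone, was 2.21-fold lower in RPKM, and Aldh18a1 was 1.29-fold higher.

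The tRNA synthetases were followed in separate lists. All 13 genes of tRNA charging and export known as ATF4 targets were higher with doxycycline, none of them 2-fold, with a median of 0.48 and a range of 0.25 to 0.92. Gars was at 170 RPKM with against 89.7 RPKM without doxycycline, and Cars was 1.61-fold higher. The 8 other cytosolic synthetases had a median of 0.10 and a range of -0.29 to 0.36, with Hars and Vars furthest apart at 1.30-fold and 1.29-fold higher. The lists overlapped, since Mars, Yars and Xpot of the first, named for this after their values were seen, lay below Hars. The core TGATGNAA was in the windows of 5 of 8 ATF4-target synthetases that had one and of 0 of 5 others; here too the first list rests in part on known elements. In Yap-/- organoids 11 of 13 were lower, with a median of -0.08, Cars being 1.17-fold and Nars 1.11-fold lower. The other synthetases had a median of -0.01, with Farsa 1.09-fold higher and Vars 1.22-fold lower, below all 13 of the first list.

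Genes of neighbouring stress pathways differed in both directions. Of 18 chaperone and degradation genes of the endoplasmic reticulum, none was 2-fold apart in either comparison, and the list medians were -0.02 in Yap-/- organoids and 0.12 with doxycycline. Hspa5, the chaperone BiP, was furthest apart, at 162 RPKM in Yap-/- against 194 RPKM in Yap+/- organoids and at 484 RPKM with against 244 RPKM without doxycycline, 1.99-fold higher. Dnajb9, a BiP co-chaperone, was 1.15-fold lower in Yap-/- organoids. Creld2 was 1.50-fold higher with doxycycline, whereas Xbp1, a factor of another arm of the unfolded protein response, was at 40.2 RPKM with against 59.2 RPKM without, and was named after its values were seen. The 7 mitochondrial chaperones and proteases had medians of 0.04 in Yap-/- organoids and -0.09 with doxycycline, with Trap1 furthest apart with the drug, 1.27-fold lower, and Hspa9 next, 1.17-fold higher. In Yap-/- organoids the protease gene Lonp1 was 1.21-fold lower and the chaperonin gene Hspe1 1.14-fold higher.

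NRF2, the oxidative stress factor, is also known to switch on Slc7a11, and p53 to switch on Gdf15. Of 8 other NRF2 targets, 6 were lower with doxycycline, with a median of -0.26. Nqo1 was at 23.7 RPKM with against 61.7 RPKM without doxycycline, 2.60-fold lower, but Hmox1, haem oxygenase, was 4.84-fold higher (4.08 to 5.83). Hmox1 was also the single gene of these lists 2-fold lower in Yap-/- organoids on the scale of RPKM plus 1, at 0.923 RPKM against 3.05 RPKM in Yap+/- organoids, the library through which it reached the floor. Osgin1 was next in that pair, 1.17-fold higher. Among 10 p53 targets the median was 0.03 in Yap-/- organoids and 0.30 with doxycycline. Pmaip1, which encodes the death protein NOXA and is also known as an ATF4 target, was at 8.42 RPKM in Yap-/- against 13.6 RPKM in Yap+/- organoids and at 42.1 RPKM with against 9.62 RPKM without doxycycline. Cdkn1a, the p21 cell cycle inhibitor, was at 64.8 RPKM in Yap-/- against 90.6 RPKM in Yap+/- organoids and at 87.8 RPKM with against 51.8 RPKM without doxycycline, and Sesn1 was 2.62-fold lower with doxycycline. The simple epithelial keratins also moved with doxycycline, Krt18 being at 1352 RPKM with against 261 RPKM without, and their part in the values of the stress response genes was not tested.

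Genes outside the 10 were ranked by how near their pattern over the 4 libraries came to the mean pattern of the 10. That mean, on log2 values centred per gene, was -0.51 in Yap-/- and -0.06 in Yap+/- organoids, and 0.81 with and -0.24 without doxycycline. Among 7980 candidates at 5 RPKM or more in a library, the nearest were Nfil3 (distance 0.07), Flrt3 (0.09), Slc9a2 (0.09), Gm6788 (0.11) and Rnf13 (0.13), where the median candidate was at 1.02. The nearest and furthest of the 10 genes themselves were Ddit3 at 0.19 and Chac1 at 0.77. Nfil3, a bZIP repressor, was at 3.07 RPKM in Yap-/- against 4.44 RPKM in Yap+/- organoids, and at 8.66 RPKM with against 3.64 RPKM without doxycycline. With only 4 libraries behind each pattern, many genes can lie near it, and the ranking is a description.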

How the data were processed

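RNA-seq was analysed for 4 libraries, 1 per group. The labels' protocols give column extraction of total RNA and Illumina TruSeq library preparation. CASAVA 1.8, FastQC, TopHat 1.4.1 and build mm9 appear in the submitters' processing notes. How reads were counted, on which annotation and with which strand setting or filters, is not stated in the sources used here. The deposited values were taken as RPKM from the numbers themselves, since no header names the unit; 0 sample columns were left unused.

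Library totals were solved from the RPKM values and GENCODE M21 (GRCm38) gene lengths, at which 6935 of 16802 genes gave whole reads (within 0.01) in all 4 libraries. For each listed gene the whole length nearest to that annotation giving whole reads (within 0.02) was used; it was the annotated length for 6 of 10 members. Among genes of 1 to 8 reads, 69.0% to 72.1% had an even number, as when both ends of a fragment are counted, so reads were divided by 2 before exact conditional binomial (Clopper-Pearson) 95% intervals were computed. Copies made by PCR are not independent molecules, and the intervals do not cover them.

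Log2 ratios used RPKM plus 1. A gene was 2-fold higher or lower when that ratio was at least 2-fold with 1 RPKM or more in the higher library. Folds in RPKM carry no pseudocount. No test was possible with single libraries. The code was tested on simulated data (Python 3.11.15, numpy 2.4.6, scipy 1.17.1, pandas 2.3.3). Alternatives tried were a pseudocount of 0.1 or 5, a floor of 5 RPKM or none, scaling by median ratios or upper quartiles, 4-fold in place of 2-fold, and each median without its furthest member.

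The 10 members and the lists were chosen with earlier results of these data known. Named are the members, Yap1, the 2 genes furthest from 0 in each pathway list and comparison, and the 5 genes nearest in pattern; others named are marked or serve as markers.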

Additional observations from a re-analysis of the deposited data

How the results depend on the processing

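The 10 genes were lower in Yap-/- than in Yap+/- organoids, and higher with than without doxycycline, under both scalings (20 of 20 signs in each), with every counting interval on the same side of 1 as in the deposited values; a pseudocount cannot turn a sign. The check of the intervals was added after seeing the data. All values below come from single libraries, so no setting replaces a replicate. With a pseudocount of 0.1, 1 member (Slc7a11) was 2-fold lower in Yap-/- organoids, and the member median with doxycycline was 1.17. With a pseudocount of 5, the member medians were -0.31 in Yap-/- organoids and 0.74 with doxycycline, and 3 members were 2-fold higher with doxycycline. With a pseudocount of 0.1 or median-ratio scaling, 6 members were 2-fold higher with doxycycline, against 5 in the main setting. At a 4-fold threshold 0 members were higher on the scale of RPKM plus 1, although Slc7a11 was 4.01-fold higher in RPKM. With median-ratio and upper-quartile scaling, 1 and 2 members were lower in Yap+/- organoids than in YapTg organoids without doxycycline, against 4 in the deposited values. Counting intervals from undivided reads, chosen after seeing the data, placed 10 of 10 members below, above or across 1 as before in each comparison. The shortest gene length that gave whole reads was the length already used for these genes, so that setting tests nothing. Against YapTg organoids without doxycycline, scaling put the interval of Yap-/- organoids above 1 for Atf4 and Atf5 (median-ratio) or for Atf5 alone (upper-quartile). No paired analysis was possible because each group has 1 library.

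Over all genes, the numbers 2-fold higher and lower in Yap-/- organoids were 66 and 112 with a pseudocount of 0.1, 20 and 19 with 5, and 1 and 8 at 4-fold, and 39 were lower at a floor of 5 RPKM. With doxycycline they were 350 and 323 with a pseudocount of 5, and 191 and 121 at 4-fold. Between Yap+/- organoids and YapTg organoids without doxycycline they were 198 and 213 with 0.1, 56 and 43 with 5, and 15 and 20 at 4-fold. The cause of these shifts is the construction of each setting. Depth limits the lowest members most, with 185 reads for Gdf15 without doxycycline.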
